A study of Mus musculus with 12 samples.

Results

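The genes described here are the 3 endothelin ligands (Edn1, Edn2 and Edn3), their receptors Ednra and Ednrb, the fibroblast growth factors Fgf1 and Fgf2, and the receptors Fgfr1, Fgfr2 and Fgfr3. They were chosen by name as retinal stress ligands with their receptors, with earlier results of these data known. They were found by Ensembl identifier as 10 of the 54532 genes in the deposited tables. All 10 passed the filter on low counts and were among the 18299 genes tested. Retinal RNA came from wild type female C57BL/6 mice that were 13 weeks old, in 12 libraries, 3 in each of 4 groups. SHAM was the sham control group. MOG mice were immunized with MOG35-55 peptide in complete Freund's adjuvant together with pertussis toxin, a model of optic neuritis within experimental autoimmune encephalomyelitis. GB20 and GV16 mice received the same immunization and, weeks later, repeated needling at acupoint GB20 or at the control acupoint GV16 under xylazine and ketamine anesthesia until the retinas were taken. The labels name no anesthesia or mock needling for MOG mice, so needling and its anesthesia cannot be told apart. The study's methods describe a few mice per group and experiments that were repeated, with biological replicates, but not how many mice stand behind a library, and p-values measure the spread between these libraries.

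Endothelins are short peptides cut from larger precursors, and they act on the G protein-coupled receptors Ednra and Ednrb. In the retina, photoreceptors are known to induce Edn2 when they are stressed, and Ednrb is found on Muller glia, the radial support cells of the retina. Fgf1 and Fgf2 bind tyrosine kinase receptors together with heparan sulfate, and Fgf2 is known as a survival factor for photoreceptors that rises after many kinds of retinal injury. The cytokine Lif, which signals through gp130 and Stat3, is known to lie upstream of both responses in damaged retina.

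Of these genes, 3 changed after immunization. Edn2 and Fgf2 were upregulated and Fgf1 was downregulated in MOG vs. SHAM, while the other endothelin ligands and all 5 receptors did not pass the test. After needling, Fgf2 was lower in GV16 vs. MOG, no member passed in GB20 vs. MOG, and no member passed in the direct comparison of both needled groups.

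The sequence just upstream of Edn2 is shown beside that of Edn1, because these sister ligand genes behaved differently after immunization. Both stretches hold the 250 bases before the annotated start, taken from RefSeq on GRCm38.p6 and read 5′ to 3′ on the plus strand, with each CG dinucleotide in capitals. The Edn2 stretch is chr4:120160956-120161205 and the Edn1 stretch is chr13:42301226-42301475.
Edn2: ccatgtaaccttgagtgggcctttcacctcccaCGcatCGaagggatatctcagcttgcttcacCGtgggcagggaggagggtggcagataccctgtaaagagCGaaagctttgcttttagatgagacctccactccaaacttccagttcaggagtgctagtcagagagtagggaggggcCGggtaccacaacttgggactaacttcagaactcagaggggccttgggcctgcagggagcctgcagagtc
Edn1: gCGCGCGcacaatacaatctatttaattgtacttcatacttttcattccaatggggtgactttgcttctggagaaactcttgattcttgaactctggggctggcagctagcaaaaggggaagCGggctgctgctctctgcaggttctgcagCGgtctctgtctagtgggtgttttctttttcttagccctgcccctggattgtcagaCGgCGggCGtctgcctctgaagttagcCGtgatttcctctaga
The Edn2 stretch held 5 CG dinucleotides at a GC content of 55.6%, and the Edn1 stretch held 9 at 50.4%. Over 32841 such windows of the mouse genome the medians were 6 CG dinucleotides and a GC content of 52.4%, so neither stretch stood far from the usual promoter. The 250 bases before the RefSeq start of Fgf2, which lie inside the gene as GENCODE annotates it because its start there is farther upstream, held 20 CG dinucleotides at 62.4%, above the upper quartile of 16 dinucleotides and 61.2%. Motifs of 2 stress-responsive factor families were searched on both strands. The STAT motif TTCNNNGAA occurred in 7.02% of all windows and the AP-1 motif TGANTCA in 6.75%. Neither was present in the 9 windows of 8 member genes that were searched, which says only that these letters are not in these stretches. Fgf1 and Fgfr1 were not among the genes searched.

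Edn2 (ENSMUSG00000028635, chr4:120161206-120167360 on GRCm38, plus strand) showed the largest fold change of the members. Its level was 7.99, 12.35 and 7.21 CPM, the read count relative to a library size scaled by TMM, in the 3 SHAM libraries. In MOG it was 24.3, 25.8 and 41.5 CPM. All MOG libraries thus lay above all SHAM libraries, and MOG replicate 3 stood highest. The fitted difference was 1.73 on the log2 scale (SE 0.258, n = 3 per group), a 3.32-fold increase, with a Benjamini-Hochberg adjusted p of 0.00893 in the quasi-likelihood test of edgeR. Leaving out SHAM replicate 1 gave 1.64 with an adjusted p of 0.0641, and a fit on the 6 SHAM and MOG libraries alone gave 1.74 with an adjusted p of 0.0547. In each of the other leave-one-out fits the call held.

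After needling, Edn2 stood at 25.5, 27.2 and 21.3 CPM in GB20. In GV16 it stood at 19.9, 16.4 and 23.4 CPM. The GB20 libraries overlapped with MOG, whereas each GV16 library lay below each MOG library and above each SHAM library. GB20 vs. MOG gave -0.31 on the log2 scale (SE 0.236, adjusted p = 0.770 in edgeR). GV16 vs. MOG gave -0.62 (SE 0.241), with an unadjusted p of 0.0283 and an adjusted p of 0.905 in edgeR. The direct difference of GB20 from GV16 was 0.31 on the log2 scale with a 95% interval from -0.23 to 0.85, so a difference between the needling sites was not detectable at this spread. Against SHAM, Edn2 was 1.43 higher in GB20 and 1.12 higher in GV16 on the log2 scale, without overlap, but neither passed (adjusted p = 0.0623 and 0.122 in edgeR). DESeq2 on all 12 libraries called both (adjusted p = 0.000298 and 0.0121). So did edgeR on only the 6 libraries of each comparison (adjusted p = 0.00309 and 0.0255). Without MOG replicate 3, a library in neither comparison, edgeR also called both (adjusted p = 0.000658 and 0.00593). Over the 12 leave-one-out fits, the result stayed uncalled in 9 for GB20 and in 11 for GV16.

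Edn1 (ENSMUSG00000021367, chr13:42301476-42307990), the main endothelin of blood vessel walls, was counted at only 24 to 45 reads per library. Its mean was 2.19 ± 0.476 CPM (SD, n = 3) in SHAM, 1.96 ± 0.310 in MOG, 1.76 ± 0.303 in GB20 and 2.01 ± 0.101 in GV16. The groups overlapped in all 6 comparisons. MOG vs. SHAM gave -0.16 on the log2 scale with a 95% interval from -0.66 to 0.35, which leaves room for a modest change but not for one of the size fitted for Edn2.

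Edn3 (ENSMUSG00000027524, chr2:174760619-174784042), the ligand that guides melanocyte and enteric neuron precursors, was close to the limit of detection with 4 to 24 reads per library. Its mean lay between 0.450 CPM in MOG and 0.853 CPM in GV16. The MOG vs. SHAM difference was -0.62 on the log2 scale, and its 95% interval from -1.73 to 0.50 was too wide to tell the groups apart.

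Among the receptors, Ednrb (ENSMUSG00000022122, chr14:103814625-103844402) was the more abundant endothelin receptor. Its SHAM libraries had 5.45, 7.23 and 8.77 CPM and its MOG libraries 6.16, 7.99 and 6.79 CPM. The needled libraries lay between 7.26 and 8.39 CPM. No group stood apart, and MOG vs. SHAM gave -0.04 on the log2 scale with a 95% interval from -0.37 to 0.29. Ednra (ENSMUSG00000031616, chr8:77663031-77724464), which mediates constriction in smooth muscle, had 9 to 29 reads per library and group means from 1.03 to 1.40 CPM. MOG vs. SHAM gave -0.17 for it, with a 95% interval from -0.87 to 0.53.

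**Figure D1:**
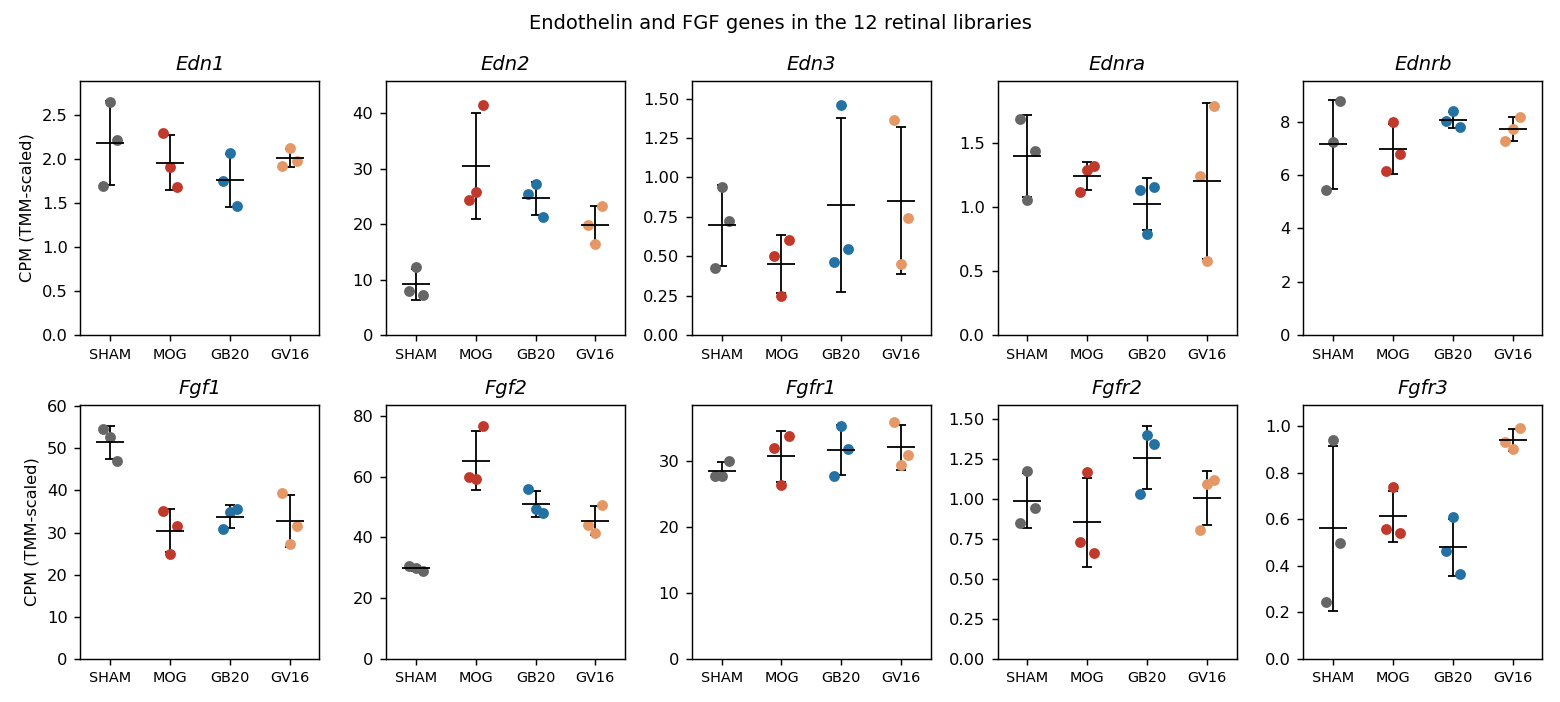
Level of each of the 10 genes in CPM on TMM-scaled library sizes (y axis, from 0, own scale per gene) in SHAM, MOG, GB20 and GV16. Points are libraries, the long bar is the group mean and the error bar is 1 SD (n = 3). Edn2 and Fgf2 stood higher and Fgf1 lower in each of the 3 MOG libraries than in any SHAM library.

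Fgf2 (ENSMUSG00000037225, chr3:37348346-37410108 on GRCm38, plus strand) was measured more tightly than Edn2. It was 30.5, 29.9 and 28.9 CPM in SHAM. In MOG it was 59.9, 59.4 and 76.6 CPM. The SHAM libraries nearly coincided, and the MOG libraries stood far above them. The difference was 1.13 on the log2 scale (SE 0.10, n = 3 per group), a 2.19-fold increase with an adjusted p of 9.515e-07 in edgeR. Over the 12 leave-one-out fits it ranged from 1.01 to 1.20 and was called in each.

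Both needled groups held intermediate levels of Fgf2. The GB20 libraries were at 56.1, 49.2 and 47.9 CPM. The GV16 libraries were at 44.1, 41.5 and 50.8 CPM. Each needled library lay above each SHAM library and below each MOG library. GV16 vs. MOG gave -0.52 on the log2 scale (SE 0.0977), so the level fell by 30.3% with an adjusted p of 0.0235 in edgeR. This call was lost without MOG replicate 3 (-0.39, adjusted p = 0.268), without GV16 replicate 1 (-0.50, adjusted p = 0.144) and without GV16 replicate 2 (-0.46, adjusted p = 0.283). GB20 vs. MOG gave -0.35 (SE 0.0967), which did not pass (adjusted p = 0.235 in edgeR). The study, from these same libraries, also lists Fgf2 as reversed by GV16 and not by GB20. The difference between the sites was itself tested. GB20 vs. GV16 was 0.17 on the log2 scale with a 95% interval from -0.04 to 0.37 (adjusted p = 0.9999 in edgeR), so the site at which Fgf2 passed was not shown to differ from the other. Fgf2 remained above SHAM in GB20 (0.78, adjusted p = 0.000333 in edgeR) and in GV16 (0.61, adjusted p = 0.00376), the latter lost without GV16 replicate 3 (0.53, adjusted p = 0.0527).

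Fgf1 (ENSMUSG00000036585, chr18:38838673-38929472 on GRCm38, minus strand), the acidic form that binds all FGF receptors, moved in the opposite direction. It was 54.6, 52.8 and 47.1 CPM in SHAM. In MOG it was 35.0, 24.9 and 31.5 CPM. The highest MOG library lay well below the lowest SHAM library. The difference was -0.76 on the log2 scale (SE 0.126, n = 3 per group), so the level fell by 40.8% with an adjusted p of 0.00297 in edgeR. It was called in each of the 12 leave-one-out fits, from -0.87 to -0.63.

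In the needled groups Fgf1 stayed near its MOG level. It was 30.8, 35.0 and 35.7 CPM in GB20. In GV16 it was 39.4, 27.3 and 31.5 CPM. Both needled groups overlapped with MOG, and the differences of 0.15 and 0.10 on the log2 scale did not pass (adjusted p = 0.800 and 0.998 in edgeR). Fgf1 was lower than in SHAM both in GB20 (-0.61, adjusted p = 0.0426 in edgeR) and in GV16 (-0.65, adjusted p = 0.0177). The GB20 call was lost in 8 of 12 leave-one-out fits, with -0.54 and an adjusted p of 0.256 without GB20 replicate 1. The GV16 call was lost in 4 of 12, with -0.54 and an adjusted p of 0.0936 without GV16 replicate 2.

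Of the FGF receptors, Fgfr1 (ENSMUSG00000031565, chr8:25513654-25575718) was by far the most abundant. Its SHAM libraries had 27.7, 27.7 and 30.0 CPM and its MOG libraries 31.9, 26.4 and 33.8 CPM, with needled libraries between 27.7 and 35.8 CPM. MOG vs. SHAM gave 0.11 on the log2 scale with a 95% interval from -0.11 to 0.33, so Fgfr1 had no detectable change beside its ligands. Fgfr2 (ENSMUSG00000030849, chr7:130162451-133123350) had 11 to 23 reads per library and a MOG vs. SHAM difference of -0.22 (95% interval from -0.92 to 0.48). Fgfr3 (ENSMUSG00000054252, chr5:33721674-33737068) had 4 to 16 reads. It was the only member with an unadjusted p under 0.05 between the needling sites in edgeR, as were 2.93% of all tested genes. GB20 libraries had 9, 10 and 6 reads and GV16 libraries 15, 14 and 16, a log2 difference of -0.96 (SE 0.430) with an unadjusted p of 0.0350 and an adjusted p of 0.9999 in edgeR.

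Read against all genes, 2 of the 10 members rose in MOG vs. SHAM where 0.568% of the 18299 tested genes rose, and 1 fell where 0.771% fell. In total 1.34% of the tested genes were called in this comparison. The members were chosen with earlier results of these data known, so these counts are not independent evidence. The groups did not overlap for the same 3 members, compared with 16.2% of the tested genes. The median difference was -0.10 on the log2 scale over the members and -0.002 over all tested genes, so the 10 genes did not share one direction. In GB20 vs. MOG, edgeR called 0 of 10 members and 0.24% of all tested genes. Fgf2 alone of the members had an unadjusted p under 0.05, as had 8% of all tested genes, and neither DESeq2 nor limma-voom called a member. Fgf2 was also the only member whose groups did not overlap there, as was the case for 15.7% of all tested genes. In GV16 vs. MOG, 1 member fell (Fgf2), compared with 0.0984% of tested genes that fell and 0.164% that were called. No member rose there, compared with 0.0656% of tested genes. Edn2 and Fgf2 had an unadjusted p under 0.05 there, as had 5.3% of all tested genes. Edn2, Fgf2 and Fgfr3 had groups that did not overlap in this comparison, as had 12.6% of all tested genes.

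In GB20 vs. GV16, edgeR called 0 members and 0.00546% of tested genes. Fgfr3 was the single member with an unadjusted p under 0.05, as were 2.93% of all tested genes, and the single one whose groups did not overlap, as was the case for 8.34% of all tested genes. DESeq2 and limma-voom called no member. Against SHAM, Fgf2 was higher and Fgf1 lower in both needled groups. In GB20 vs. SHAM 0.344% of tested genes were called, with 0.164% higher and 0.18% lower. In GV16 vs. SHAM 0.656% were called, with 0.224% higher and 0.432% lower. Edn2, Fgf1 and Fgf2 had an unadjusted p under 0.05 in both, as had 9.06% of all tested genes in GB20 vs. SHAM and 10.9% in GV16 vs. SHAM. The same members had groups that did not overlap in both, as had 12.7% and 14.5% of all tested genes. MOG vs. SHAM and both comparisons with MOG use the same MOG libraries, so a high MOG library such as replicate 3 for Edn2 and Fgf2 enters each of them.

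**Figure D2:**
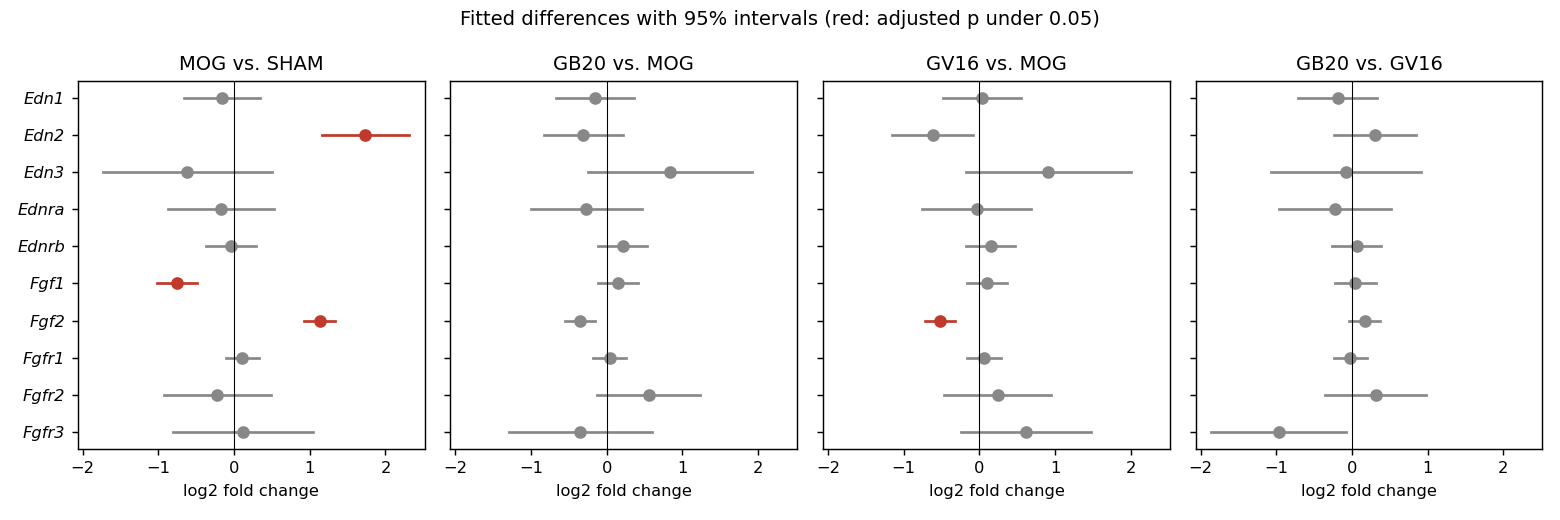
Fitted log2 fold change (x axis) of each of the 10 genes, in 1 panel for MOG vs. SHAM, 1 for each needled group vs. MOG and 1 for GB20 vs. GV16. Points are edgeR estimates and bars their 95% intervals. Red marks an adjusted p under 0.05, reached by Edn2 (1.73), Fgf1 (-0.76) and Fgf2 (1.13) in MOG vs. SHAM and by Fgf2 (-0.52) in GV16 vs. MOG.

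To compare levels between genes, the authors' FPKM values were used, which are read counts normalized to transcript length and sequencing depth. In SHAM, Fgf1 was highest at 11.0 ± 0.840 FPKM (SD, n = 3). Edn2 followed at 6.22 ± 1.88 FPKM and Fgf2 at 4.35 ± 0.121 FPKM. Fgfr1, Ednrb and Edn1 came next at 2.86, 1.66 and 1.01 FPKM. Each of these 6 genes was separated from the next in all 3 SHAM libraries. Ednra, Edn3, Fgfr2 and Fgfr3 lay between 0.0776 and 0.253 FPKM, and each overlapped with its neighbour in that order.

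In MOG the order at the top changed to Edn2 at 20.7 ± 6.44 FPKM, Fgf2 at 9.55 ± 1.42 FPKM and Fgf1 at 6.51 ± 1.12 FPKM, again without overlap between neighbours. In GB20, Edn2 stayed first at 16.7 ± 2.04 FPKM, and Fgf2 at 7.47 ± 0.595 FPKM overlapped with Fgf1 at 7.22 ± 0.609 FPKM. In GV16, Edn2 was at 13.5 ± 2.39 FPKM, and Fgf1 at 6.99 ± 1.33 FPKM overlapped with Fgf2 at 6.66 ± 0.711 FPKM. The ligands were thus more abundant per length than any of the receptors in each group, apart from Edn1 and Edn3.

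**Figure D3:**
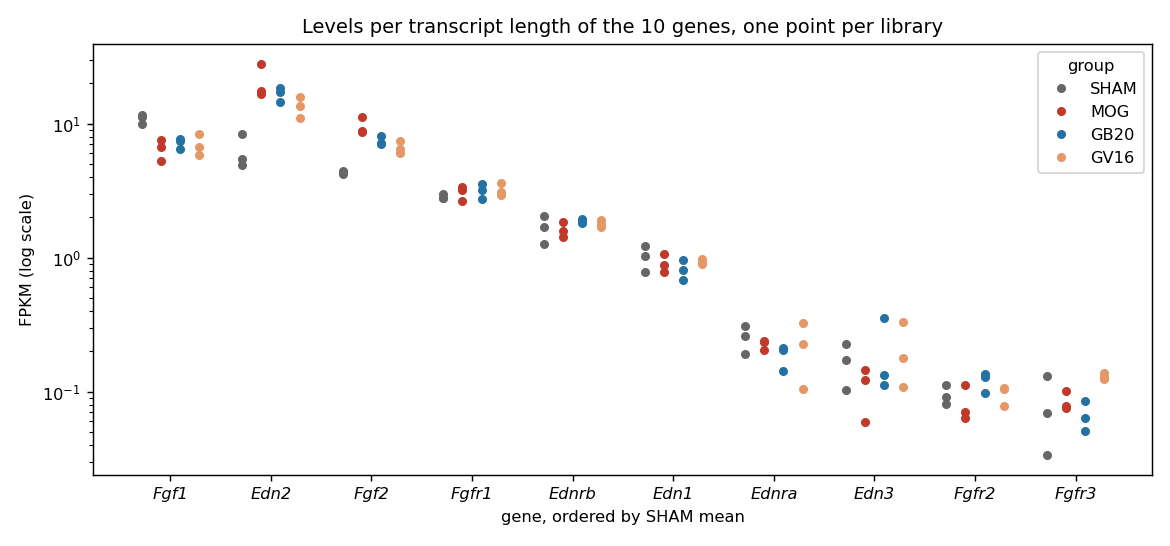
FPKM of the 10 genes (y axis, log scale) in each library, with genes ordered by their SHAM mean and colors for SHAM, MOG, GB20 and GV16. Fgf1 was highest in SHAM at a mean of 11.0 FPKM and Edn2 highest in MOG at 20.7 FPKM, while Ednra, Edn3, Fgfr2 and Fgfr3 stayed under 0.4 FPKM in each library.

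Because Fgf1 and Fgf2 share receptors, their balance was also taken within each library as the log2 ratio of Fgf2 to Fgf1 FPKM, which no scaling of libraries can change. The ratio was -1.39, -1.36 and -1.25 in the SHAM libraries, so Fgf1 exceeded Fgf2 in each. In MOG it was 0.23, 0.71 and 0.74, so Fgf2 exceeded Fgf1 in each. It was 0.32, -0.05 and -0.12 in GB20 and -0.38, 0.06 and 0.15 in GV16, on both sides of equality. The MOG mean exceeded the SHAM mean by 1.89, with a p of 0.1 in a two-sided exact permutation test. That is the smallest p that 3 against 3 libraries allow, and it became 0.15 after Benjamini-Hochberg adjustment over the 6 comparisons. GV16 was 0.62 lower than MOG on this scale (exact permutation p = 0.1, adjusted 0.15), and GB20 was 0.51 lower (exact permutation p = 0.2, adjusted 0.24). The needled groups differed from each other by 0.11 (exact permutation p = 0.7, adjusted 0.7), and this difference turned to -0.03 without GB20 replicate 1 and to -0.05 without GV16 replicate 1. Both stayed above SHAM, by 1.38 in GB20 and by 1.28 in GV16, each with an exact permutation p of 0.1 (adjusted 0.15).

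**Figure D4:**
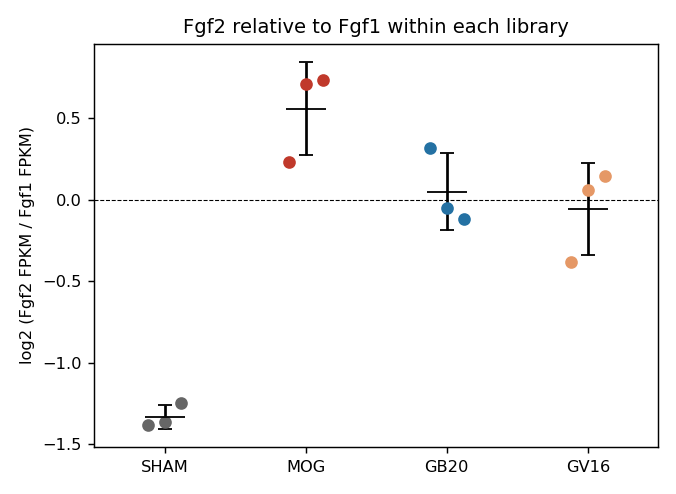
Log2 ratio of Fgf2 to Fgf1 FPKM within each library (y axis) in SHAM, MOG, GB20 and GV16. Points are libraries, long bars group means and error bars 1 SD (n = 3). The dashed line marks equal FPKM. SHAM libraries lay between -1.39 and -1.25, MOG libraries between 0.23 and 0.74, and needled libraries on both sides of the line.

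Some member exons are shared with other annotated genes, and since the strand setting of the counting was not stated, reads from such stretches cannot be assigned with certainty. At the Fgf2 locus, Nudt6, transcribed from the opposite strand, shares 640 exonic bases with Fgf2, which are 9.44% of the Fgf2 exon length. Nudt6 was not called in MOG vs. SHAM (0.43 on the log2 scale, adjusted p = 0.428 in edgeR), at 2.41 to 5.16 CPM over both groups. Gm43439 shares 255 bases and was at 0 reads in 11 of the 12 libraries and at 1 read in the other. The antisense gene Fgf2os (chr3:37335332-37349740) overlaps the Fgf2 locus without sharing exons. Its SHAM libraries had 5.57, 6.29 and 5.60 CPM and its MOG libraries 9.85, 9.89 and 10.7 CPM, a rise of 0.80 on the log2 scale (SE 0.137, adjusted p = 0.00242 in edgeR). It rose beside Fgf2, and reads from unspliced RNA of this shared stretch cannot be told apart without strand. In the needled groups Fgf2os was lower than in every MOG library, with -0.61 in GB20 (adjusted p = 0.0604 in edgeR) and -0.43 in GV16 (adjusted p = 0.495), neither of which passed.

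Fgfr2 shares 314 bases with Ctbp2 on the same strand. Ctbp2, the gene of the synaptic ribbon protein RIBEYE, was at 231 to 310 CPM in SHAM and MOG, far above Fgfr2. Fgfr3 shares 998 bases, 13.9% of its exon length, with G630022F23Rik, and Fgfr1 shares 164 bases with Gm16159. Edn1 shares 35 bases with Gm47118 and Ednra 91 bases with 4933431K23Rik. G630022F23Rik was at 0 reads in 10 of the 12 libraries and at 1 and 2 reads in the others, below the 4 to 16 reads of Fgfr3. No exon of Edn2 or Fgf1 overlapped another gene.

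The genes around these ligands were followed in lists of known pathway members. In MOG vs. SHAM, 0.568% of all tested genes rose and 0.771% fell, beside which the counts of each list stand. Of the endothelin-converting enzymes and related proteases, which cut peptide precursors, 1 of 5 tested genes rose in MOG vs. SHAM. This was Ecel1, a peptidase known to be induced in injured neurons and named for its likeness to the converting enzymes. Its mean was 0.815 ± 0.112 CPM (SD, n = 3) in the SHAM libraries, and it rose to 6.80 ± 1.96 CPM in MOG (3.05 on the log2 scale, SE 0.249, adjusted p = 3.231e-07 in edgeR). It stayed higher than SHAM in GB20 (2.68, adjusted p = 6.197e-06) and GV16 (2.85, adjusted p = 1.674e-06). The converting enzymes themselves, Ece1 and Ece2, gave -0.05 and -0.11 on the log2 scale in MOG vs. SHAM and did not pass. Of the 8 G proteins and phospholipases C that endothelin receptors use, 0 were called by edgeR, DESeq2 or limma-voom in MOG vs. SHAM and 0 had an unadjusted p under 0.05. Their median difference was 0.05 on the log2 scale.

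On the FGF side, 7 of the 16 other secreted ligands were tested and 0 passed in MOG vs. SHAM by edgeR, DESeq2 or limma-voom, with 0 at an unadjusted p under 0.05. Fgf9, a secreted ligand that nerve cells make, averaged 34.1 ± 4.84 CPM in SHAM against 33.2 ± 1.90 CPM in MOG. The 4 intracellular FGF homologous factors, which bind sodium channels and are not secreted, had a median of -0.23 on the log2 scale. None was called by edgeR or limma-voom and DESeq2 called 1. Of the 4, 3 had an unadjusted p under 0.05, as had 13% of all tested genes in MOG vs. SHAM. Fgf12 among them fell in GV16 vs. SHAM (-0.46, adjusted p = 0.0304 in edgeR), a call kept in 8 of 12 leave-one-out fits. The lower level was not particular to GV16. Fgf12 averaged 79.4 CPM in SHAM, 60.2 in MOG, 59.3 in GB20 and 57.5 in GV16. DESeq2 also called 1 gene of this list in GB20 vs. SHAM. Of the 12 tested other FGF receptors, co-receptors and carriers, 0 passed by any of these tools and 0 at an unadjusted p under 0.05, with a median of 0.02. Of the 8 adaptors that link FGF receptors to ERK, 0 passed by any of these tools and 1 had an unadjusted p under 0.05, with a median of -0.03.

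The genes that ERK signaling induces, the Sprouty, Spred, Dusp and Etv families, did not rise with Fgf2. Of 13 tested, 1 was called in MOG vs. SHAM, and it fell. Etv1, a transcription factor of the Ets family, averaged 14.6 ± 1.49 CPM in SHAM and 9.35 ± 0.574 CPM in MOG (-0.64 on the log2 scale, SE 0.124, adjusted p = 0.00712 in edgeR), a call lost without MOG replicate 2. Etv1 averaged 10.6 CPM in GB20 and 11.1 CPM in GV16, where no gene of the list was called against SHAM. In MOG vs. SHAM the list had a median of -0.15, and 3 of its 13 genes had a difference above 0. Dusp6 and Spry4, negative feedback regulators of ERK, gave -0.15 and -0.24 without passing.

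Of the 11 tested genes of Lif and gp130 signaling, 2 rose in MOG vs. SHAM, beside 0.568% of all tested genes. Osmr, the receptor of oncostatin M, had 7.27, 6.41 and 7.10 CPM in the SHAM libraries and 15.3, 18.3 and 19.7 CPM in the MOG libraries (1.36 on the log2 scale, SE 0.142, adjusted p = 5.351e-06 in edgeR). Stat3, the transcription factor that gp130 activates, rose by 0.71 (SE 0.0951, adjusted p = 0.000224). Lif itself had 6 to 29 reads per SHAM and MOG library and gave 1.22 on the log2 scale with an unadjusted p of 0.00804 and an adjusted p of 0.201 in edgeR. Osmr then fell in GB20 vs. MOG (-0.67, adjusted p = 0.0303) and in GV16 vs. MOG (-0.66, adjusted p = 0.0473). These calls were kept in 7 and 4 of 12 leave-one-out fits, with sizes down to -0.59 and -0.54. Of 12 gliosis genes, which reactive Muller cells and astrocytes are known to induce, 6 rose in MOG vs. SHAM by edgeR. DESeq2 called 7, and 0.568% of all tested genes rose by edgeR. Those called by edgeR were Serpina3n (2.08 on the log2 scale), C4b (1.73), A2m (1.51), Gfap (1.25), Cd44 (0.77) and Cp (0.31). The A2m and Cp calls were each kept in 8 of 12 leave-one-out fits and the other 4 in all 12. The list's median was 0.68, and all 12 genes had a difference above 0. In the needled groups 0 gliosis genes were called against MOG by edgeR, DESeq2 or limma-voom, with 2 in GB20 and 3 in GV16 at an unadjusted p under 0.05, beside 8% and 5.3% of all tested genes. This differs from the study, whose own DESeq2 fit lists Gfap as reversed by GV16 and not by GB20. The DESeq2 fit here took all 12 libraries together. Gfap averaged 54.9 CPM in MOG, 51.3 in GB20 and 41.3 in GV16.

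**Figure D5:**
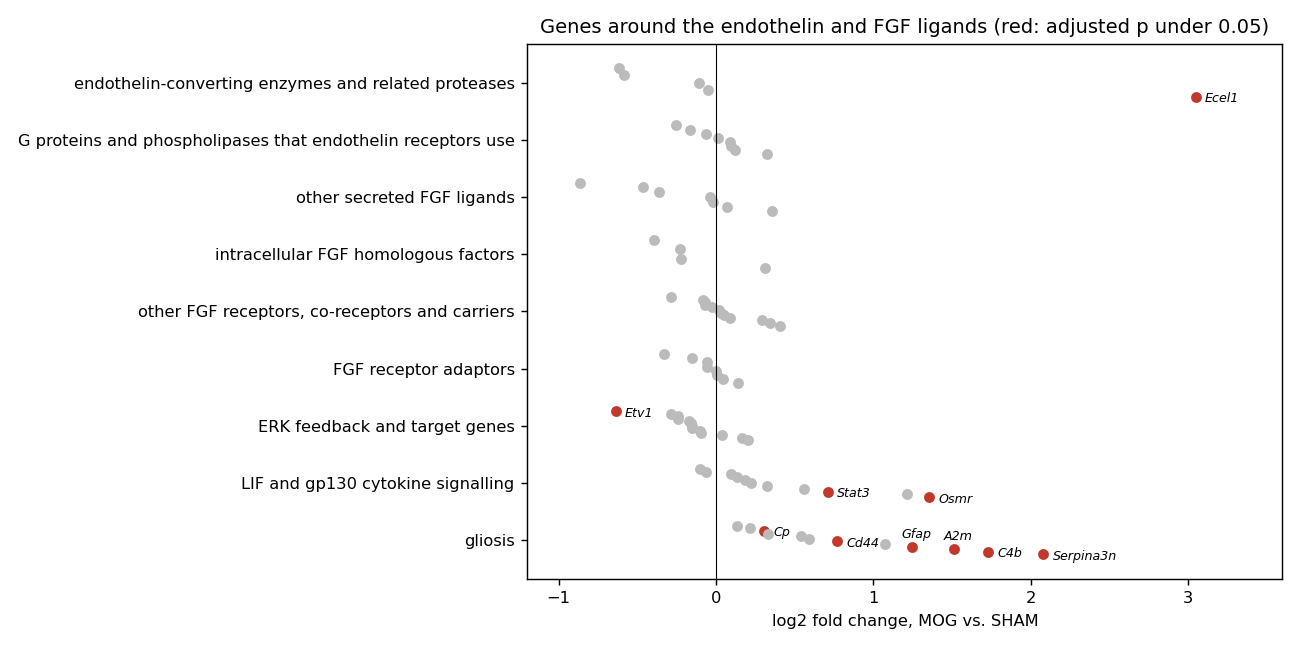
Log2 fold change in MOG vs. SHAM (x axis) of each tested gene in 9 lists of genes around the endothelin and FGF ligands (rows). Each point is a gene, red with its name where the adjusted p was under 0.05. Ecel1 stood alone at 3.05 among the proteases, Etv1 fell by 0.64 on the log2 scale, and Stat3, Osmr and 6 gliosis genes rose.

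Cell type markers moved with some of these results. All 11 retinal ganglion cell markers were called lower in MOG vs. SHAM, as were 0.771% of all tested genes. The Pou4f3, Nefm and Slc17a6 calls were each kept in 8 of 12 leave-one-out fits and the Rbpms call in 9 of 12. The other marker calls were kept in all 12, and edgeR and DESeq2 on the 6 libraries did not call Pou4f3. The markers' summed level was 850 to 965 CPM in SHAM, 473 to 572 in MOG, 567 to 589 in GB20 and 446 to 646 in GV16. Fgf1 was followed beside this sum. For each 100 CPM of ganglion cell markers there were 5.54 to 5.88 CPM of Fgf1 in SHAM, 5.26 to 6.64 in MOG, 5.41 to 6.17 in GB20 and 5.37 to 7.06 in GV16, so the ratio overlapped between all groups. A gene of any cell type that falls by a similar share gives such a ratio. Which cells held Fgf1 was not measured, and a link of its fall to ganglion cells was not tested. In such bulk retina, fewer cells of a type and less RNA per cell cannot be told apart. The rod markers, the labelled tissue's most abundant, summed to 63200 to 67890 CPM in SHAM and 61070 to 67490 in MOG with 0 of 10 called. Muller cell markers summed to 4059 to 4335 CPM in SHAM and 3774 to 4284 in MOG, with 1 of 9 called, Aqp4, a water channel, which rose by 0.46 on the log2 scale. Over all tested genes 0.568% rose. Aqp4 also fell in GB20 vs. MOG (-0.35, adjusted p = 0.0293 in edgeR) and in GV16 vs. MOG (-0.34, adjusted p = 0.0473), calls kept in 6 and 2 of 12 leave-one-out fits. It thus moved beside the lower Fgf2 of GV16, and its part in that result was not tested. The Muller cell marker Rlbp1 was called lower in GV16 vs. SHAM, a call kept in 7 of 12 leave-one-out fits. Neither the rod nor the Muller cell sum stood apart between the groups where Edn2 and Fgf2 did. Cone markers summed to 1382 to 1567 CPM in SHAM and 1334 to 1383 in MOG, with 0 of 8 called. They summed to 1459 to 1526 CPM in GB20, above MOG, and to 1328 to 1554 in GV16. In GB20 vs. MOG 4 of the 8 did not overlap, beside 15.7% of all tested genes, and 0 were called. The cone marker Opn1mw was called higher in GV16 vs. SHAM, a call kept in 5 of 12 leave-one-out fits.

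Astrocyte markers summed to 38.3 to 45.2 CPM in SHAM and 71.0 to 76.1 in MOG, with 1 of 4 called. This was Gfap, which the gliosis list also holds, and it averaged 23.1 CPM in SHAM and 54.9 CPM in MOG, so it carried the rise of the sum. Pax2, Pdgfra and S100b were not called, and S100b averaged 7.27 CPM in SHAM and 5.58 CPM in MOG. Microglia markers summed to 41.9 to 49.5 CPM in SHAM and 58.9 to 68.1 in MOG, with 2 of 10 called (Csf1r and C1qa), and no marker of either list was at 0 in a group. The called markers of both lists rose, as did 0.568% of all tested genes. The Csf1r call was kept in 9 of 12 leave-one-out fits and the C1qa call in 3 of 12, and edgeR on the 6 libraries called neither. Markers of pigment epithelium and choroid summed to 13.4 to 19.8 CPM in SHAM and 23.6 to 30.8 in MOG, with 0 of 8 tested called by edgeR and 1 by DESeq2. Of these 8, 3 had an unadjusted p under 0.05, beside the 13% of all tested genes. The 6 T cell markers summed to at most 0.765 CPM in SHAM and 1.20 in MOG and were not tested. Endothelial markers summed to 250 to 295 CPM in SHAM and 280 to 300 in MOG. The part of these cell types in the Edn2 and Fgf2 results was not tested.

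Last, the genes whose levels followed each changed ligand most closely over the 12 libraries were listed by Pearson's r of log2 CPM, as a description that also carries the group differences. For Edn2 these were Tnnt2 (0.976), C4b (0.971), Stat3 (0.946), Serpina3n (0.943) and Tor3a (0.942). For Fgf2 they were Tnnt2 (0.963), Osmr (0.960), Rlf (0.935), Lad1 (0.935) and Tor3a (0.933). Tnnt2, the cardiac form of troponin T, headed both lists, and C4b, Serpina3n, Stat3 and Osmr belong to the gliosis and gp130 lists above. For Fgf1 they were Prkar1b (0.974), Nefm (0.968), Rab7 (0.966), Ndrg4 (0.964) and Cplx1 (0.964). Nefm is a neurofilament subunit of large axons, and Cplx1 acts in transmitter release.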

How the data were processed

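Retinal RNA of 12 libraries (3 each in SHAM, MOG, GB20 and GV16, grouped by sample title) was enriched for polyadenylated RNA, aligned to mm10 with HISAT2 2.0.5 per the submitters' processing notes, and counted per gene with FeatureCounts. The authors deposited these raw counts, and FPKM values that they computed from the counts and gene length. The total count was 16637268 to 18033426 in SHAM, 16122738 to 18067710 in MOG, 16338917 to 19194280 in GB20 and 15860278 to 16198995 in GV16. Low counts carry the counting error of few reads.

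Counts were fitted in R 4.3.3 with edgeR 4.0.16 (expression filter, TMM scaling, all 12 libraries, 1 mean per group, robust quasi-likelihood, 8 residual degrees of freedom) and adjusted by Benjamini-Hochberg over 18299 genes. An adjusted p under 0.05 at any size was a call. Intervals used a t quantile on the fit's degrees of freedom. DESeq2 1.42.0, limma 3.58.1 (voom, and log2 of FPKM with a pseudocount of 1 or 0.1), other filters and scalings, and leaving out each library were alternatives. The fit was tested on simulated data. GENCODE vM21 (GRCm38) gave names, exons and coordinates for 54409 of 54532 identifiers, and RefSeq on GRCm38.p6 the upstream sequences. Figures were drawn with matplotlib 3.10.9.

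Named genes were the members, genes sharing exons with them, called genes of the lists, and the 5 genes most correlated with each called member. Fgf2os, Ece1, Ece2, Fgf9, Dusp6, Spry4, Lif, the astrocyte markers and the called markers of other cell types were added after their values were seen. Members and lists were chosen with earlier results of these data known, and several list genes are among those the study itself picked from these libraries, so their counts are not independent evidence.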

Additional observations from a re-analysis of the deposited data

How the results depend on the processing

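The calls of Edn2, Fgf1 and Fgf2 in MOG vs. SHAM kept their direction in every alternative and left-out fit run, and 2 to 3 members were called throughout. No gene-level result that was called in either fit changed direction, 36 calls were lost and 13 gained. Without a filter on low counts, GB20 vs. MOG had 1 call, Fgf2 (-0.35, adjusted p = 0.0223 in edgeR). With limma on log2(FPKM + 1), on log2(FPKM + 0.1) and on every gene with an FPKM above 0, the calls in GV16 vs. MOG, GB20 vs. SHAM and GV16 vs. SHAM came to 0, and Fgf1 in MOG vs. SHAM was lost (adjusted p from 0.0701 to 0.116). The cause was not tested. Leaving out 1 library at a time gave 2 to 3 members called in MOG vs. SHAM, 0 in each fit of GB20 vs. MOG, 0 to 1 in GV16 vs. MOG, 0 in each fit of GB20 vs. GV16, 1 to 3 in GB20 vs. SHAM and 0 to 3 in GV16 vs. SHAM. Where this leaves a group with 2 libraries, its spread is taken to be that of the others. With FPKM + 1, the difference in the Fgf2 to Fgf1 log2 ratio was 1.66 in MOG vs. SHAM and 1.20 in GB20 vs. SHAM. Leaving out 1 library moved it from 1.80 to 2.06 in MOG vs. SHAM and from -0.054 to 0.21 in GB20 vs. GV16. Edn3, Ednra, Fgfr2 and Fgfr3, with at most 29 reads in a library, are limited by depth.

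With the replicate number as a block, the number of members called stayed at 3 in MOG vs. SHAM, 0 in GB20 vs. MOG, 1 in GV16 vs. MOG, 0 in GB20 vs. GV16 and 2 in either needled group vs. SHAM, while calls over all genes rose from 245 to 404 in MOG vs. SHAM. The study's methods describe repeated experiments, but neither they nor the labels say that a number marks the same repeat in each group. Deviations of same-numbered libraries correlated at -0.117 to 0.432, above 0.1 in 8 of 18 pairs, and 9 of 12 libraries correlated best with their own number.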
